A study of Bos taurus with 3 samples.

Results

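The miRNAs described here are miR-28, miR-708 and both arms of miR-151, whose hairpins are known from genome surveys to descend from LINE-2 retrotransposons. They were chosen by name, as every mature miRNA of the count table whose name without species prefix and arm is miR-28, miR-151 or miR-708. This gave 4 of the 793 mature miRNAs of the table, listed there as bta-miR-28 (MIMAT0009272), bta-miR-708 (MIMAT0009367), bta-miR-151-5p (MIMAT0003523) and bta-miR-151-3p (MIMAT0003524). Each stood in 1 row on 1 hairpin, and no other miRNA carried the same counts, so that none of the 4 was affected by the choice between several rows. The table names miR-28 and miR-708 without an arm, and only the hairpin of miR-151 has both arms listed.

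The libraries hold small RNA of purified large dense-core vesicles, the organelles in which chromaffin cells of the adrenal medulla store catecholamines and peptides. All 3 libraries came from Bos taurus adrenal medulla of cows from local slaughter, with no treatment or genotype in the labels, and no age or number of animals. The labels call 2 of them technical replicates, written T1 and T2 below, and 1 a biological replicate, B1. Whole cells and other fractions were not analysed here, so the values describe the vesicle preparations and not enrichment over the cell. In such bulk RNA, fewer cells of a type and less RNA per cell cannot be told apart. T1 and T2 were averaged first, as 1 preparation, and each mean ± SD is over n = 2 preparations.

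A LINE-2 element is an old mobile sequence, long inactive in mammals, of which many copies remain in their genomes. Where a pair of copies lies close together in opposite orientation, the transcript can fold back on itself into a hairpin, and some such hairpins entered the miRNA pathway. Drosha and Dicer cut a hairpin into a duplex of a 5p and a 3p strand, and usually 1 strand is retained in an Argonaute protein while the other is degraded. The hairpins of miR-28, miR-151 and miR-708 are related in sequence, and because of this likeness a few reads could be assigned to the wrong one. In other mammals the 5p strands of miR-28 and miR-708 share a seed, the stretch near the 5′ end that pairs with target mRNAs. In RefSeq's ARS-UCD2.0 gene table, where all 3 hairpins were matched by name, MIR28 lay within the span of LPP, MIR151 within PTK2 and MIR708 within TENM4, and each was the 1 miRNA gene listed inside that span. Strand and exons were not checked, and the assembly is not the UMD3.1 of the submitters' processing notes. LPP encodes a protein of cell adhesion sites, PTK2 the focal adhesion kinase and TENM4 a teneurin, a transmembrane protein of neuronal connections. Sequences and the transcripts of these genes were not analysed here.

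With 1 row kept per mature miRNA, T1 held 5546771 counts, T2 6251664 and B1 6708654. The endocrine miRNA miR-375 took between 35.8% and 41.7% of these counts, and the endocrine list (miR-375 and miR-7) 44.1%, 42.8% and 47.3% in T1, T2 and B1; both are known to be high in endocrine cells. Markers of other cells of the medulla were present at lower levels. A count of 0 would allow up to 3 counts, or 0.447 to 0.541 CPM (counts scaled to a common library total), far below each of the 4 miRNAs. Intervals below are exact Clopper-Pearson 95% intervals and cover counting error only.

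miR-151-3p had by far the most counts of the 4, miR-708 and miR-28 stood within a narrow range of each other, and miR-151-5p had few. How evenly the libraries captured different sequences was not measured, so levels of different miRNAs or arms are compared as counts only. Together they took 0.555% of all miRNA counts in T1, 0.570% in T2 and 0.637% in B1, a mean of 0.600% ± 0.0527 (SD, n = 2). miR-151-3p alone made up 68.0%, 69.5% and 75.7% of that sum in the same order. The share of B1 was the highest, and its interval (0.631 to 0.643%) did not overlap those of the technical pair (0.549 to 0.561% and 0.564 to 0.576%). The intervals of T1 and T2 did not overlap each other either.

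miR-151-3p, the strand from the 3′ side of the miR-151 hairpin, had 20933, 24774 and 32368 counts in T1, T2 and B1. These were 3774 CPM (95% interval 3723 to 3825), 3963 CPM (3914 to 4012) and 4825 CPM (4773 to 4878). Both technical libraries thus lay below the biological one, and the mean was 4347 CPM ± 676 (SD, n = 2). miR-151-3p ranked number 27 of all miRNAs by mean level, and 30, 30 and 27 in the single libraries. Directly above it in mean level stood miR-125a (5286 CPM ± 198) and miR-24-3p (6137 CPM ± 277), which exceeded it by more than either SD and in all 3 libraries. miR-99b (4246 CPM ± 606) and miR-148a (3973 CPM ± 342) came next below and did not differ from it beyond the larger SD. Each of these neighbours was the higher in both technical libraries and the lower in B1.

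miR-708, whose hairpin is known in other species to respond with its host to stress of the endoplasmic reticulum, had 5344, 5591 and 5557 counts. Its levels were 963 CPM in T1, 894 CPM in T2 and 828 CPM in B1, with a mean of 879 CPM ± 71.1 (SD, n = 2). The biological library was the lowest, but the technical libraries also differed from each other by about as much as the second of them differed from the biological one (log2 ratios of -0.11 for both). miR-708 ranked number 70 in mean level. Its neighbours miR-744 (881 CPM), miR-10a (903 CPM), miR-194 (844 CPM) and miR-137 (834 CPM) did not differ from it beyond the larger SD of each pair. miR-708 was above miR-194 in every library, above miR-744 and miR-137 in both technical libraries only, and above miR-10a in T1 only.

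miR-28, known from germinal centre B cells and their lymphomas, had 3997, 4730 and 4218 counts. They corresponded to 721 CPM (95% interval 698 to 743) in T1, 757 CPM (735 to 778) in T2 and 629 CPM (610 to 648) in B1. The biological library lay below both technical ones, and the mean was 684 CPM ± 77.7 (SD, n = 2), number 83 in rank. miR-28 and miR-708 differed in mean by more than either SD, and miR-708 was higher in all 3 libraries. miR-93, miR-181d, miR-380-3p and miR-30c, between 678 and 693 CPM, surrounded miR-28 and did not differ from it beyond the larger SD. Their order was not the same in each library. miR-93 and miR-181d were below miR-28 in both technical libraries and above it in B1. miR-380-3p was above it in T2 only, and miR-30c in T2 and B1.

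miR-151-5p, the partner strand from the 5′ side of the miR-151 hairpin, had only 502, 540 and 588 counts. At 90.5, 86.4 and 87.6 CPM in T1, T2 and B1, its intervals overlapped in all 3 libraries (82.8 to 98.8, 79.2 to 94.0 and 80.7 to 95.03 CPM). The biological value lay between those of the technical pair. Its mean was 88.0 CPM ± 0.560 (SD, n = 2), an SD that is smaller than the gap within the technical pair and so understates the spread. miR-151-5p ranked number 173, among miR-491 (93.04 CPM), miR-1296 (91.7 CPM), miR-324 (84.6 CPM) and miR-1197 (83.7 CPM), which did not differ from it beyond their SDs. All of these neighbours were above it in both technical libraries and below it in B1.

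**Figure D1:**
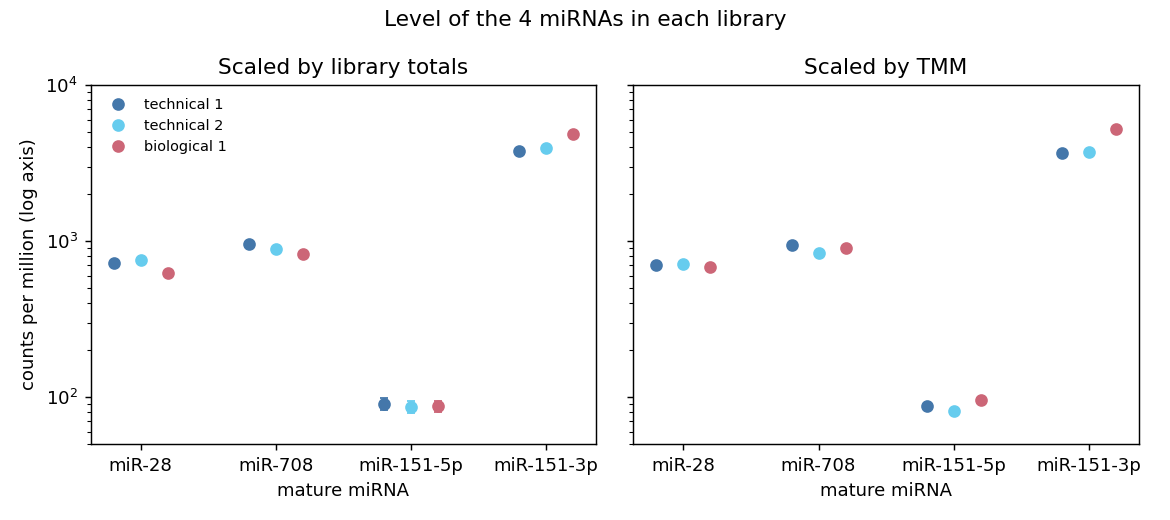
Level of the 4 miRNAs in CPM (log axis) in each library, scaled by library totals on the left, with exact 95% counting intervals, and by TMM on the right. miR-151-3p stands between 3774 and 4825 CPM on the left and miR-151-5p between 86.4 and 90.5 CPM, while miR-28 and miR-708 in B1 lie below both technical libraries on the left, and miR-708 in B1 lies between them on the right.

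The arms of the miR-151 hairpin were recovered very unequally. The 3p arm held 97.7% of the 21435 counts of both arms in T1 (95% interval 97.4 to 97.9%), 97.9% of 25314 in T2 (97.7 to 98.04%) and 98.2% of 32956 in B1 (98.07 to 98.4%). The mean was 97.99% ± 0.321 (SD, n = 2). For each count of the 5p arm there were 41.7, 45.9 and 55.05 counts of the 3p arm in T1, T2 and B1. The intervals of these ratios overlapped within the technical pair (38.2 to 45.6 and 42.1 to 50.05), and that of B1 (50.7 to 59.8) lay above both. Arm ratios are formed within a library and do not depend on how libraries are scaled.

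The same share was taken in every hairpin with both arms named in the table. There were 82 such hairpins, of which 43 had at least 100 counts, counted per hairpin copy. The 3p arm was the larger in 20 of them and the 5p arm in 23. The minor arm held a median of 7.53% over the 43 hairpins, against 2.01% in miR-151, and 14 hairpins had a smaller minor arm than miR-151. The strong imbalance of miR-151 was thus shared by many hairpins. In 34 hairpins both arms had at least 10 counts in each library, and the log2 ratio of the arms could be followed across libraries. Its change from the technical pair to B1 was 0.33 for miR-151, below the median absolute change of 0.48 over these hairpins, and 23 of them changed by more. Within the technical pair the log2 ratio of the miR-151 arms differed by 0.14, close to the median absolute value of 0.15. No model was fitted to the arm ratio, and its difference between preparations is a description of these 3 libraries.

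**Figure D2:**
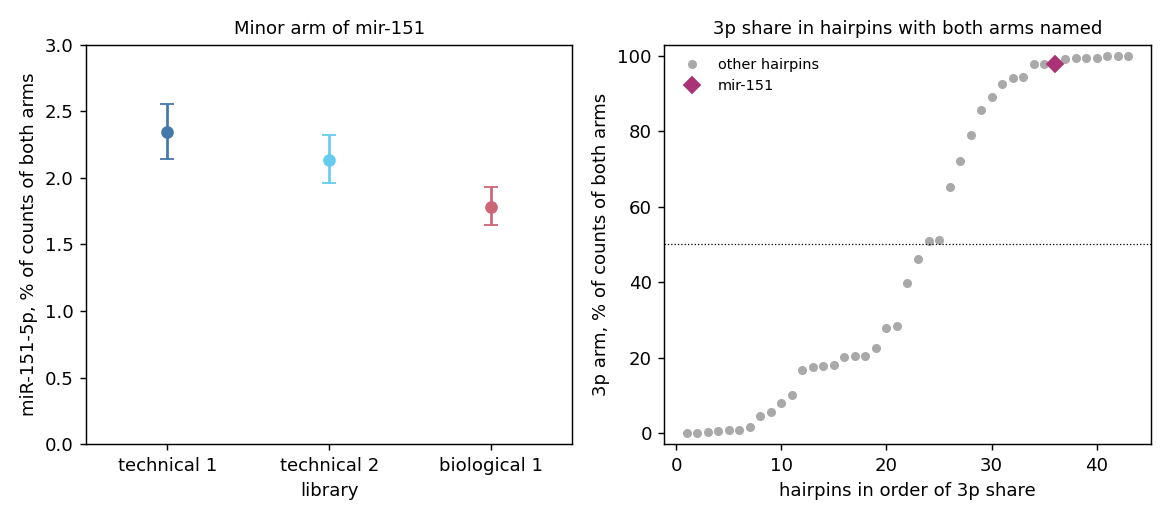
Left, share of miR-151-5p in the counts of both arms (percent) by library, with exact 95% intervals. Right, share of the 3p arm (percent, mean over 2 preparations) in the 43 hairpins with at least 100 counts, in rising order, where miR-151 stands at 97.99% and hairpins with an excess of the 5p arm stand on the left.

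Ratios between the 4 miRNAs within a library separated miR-151-3p from the others. Per count of miR-28 there were 5.24 counts of miR-151-3p in both technical libraries and 7.67 in B1. The intervals of the technical pair (5.06 to 5.42 and 5.08 to 5.40) lay well below that of B1 (7.43 to 7.93). Such ratios were not formed for pairs of other miRNAs, so how common this separation is was not tested. Against miR-708, miR-151-3p stood at 3.92, 4.43 and 5.82 in T1, T2 and B1. Here the technical pair also differed beyond its counting intervals, but the biological value was still the highest.

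The ratio of miR-708 to miR-28 behaved otherwise. It was 1.34 in T1, 1.18 in T2 and 1.32 in B1. The biological value lay between the technical ones, so this ratio differed more within a preparation than between the preparations. The ratios of miR-28 and of miR-708 to miR-151-5p were 7.77 ± 0.840 and 9.98 ± 0.742 (SD, n = 2), with values from 7.17 to 8.76 and from 9.45 to 10.6 in the 3 libraries. The biological library had the lowest value of both, with intervals of 6.58 to 7.83 and 8.68 to 10.3. Those intervals overlapped T1 for both ratios (7.25 to 8.75 and 9.71 to 11.7). Against T2 they overlapped for miR-708 (9.48 to 11.3), but for miR-28 the interval of T2 (8.01 to 9.59) lay wholly above that of B1.

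Between the preparations, miR-151-3p was higher in B1, and miR-28, miR-708 and miR-151-5p did not pass the test. The comparison sets the library of a second preparation against the technical pair, with no treatment named in the labels. After TMM scaling, which sets libraries to a common level over most miRNAs, miR-151-3p had 3675, 3743 and 5246 CPM in T1, T2 and B1. Its log2 fold change was 0.50 ± 0.10 (SE), or 1.41-fold, and edgeR's quasi-likelihood test gave it a Benjamini-Hochberg adjusted p of 4.34e-06 over 367 miRNAs. B1 was above both technical libraries under either scaling, as it was after TMM scaling for 44.1% of the tested miRNAs. In all, 37.9% of the 367 tested miRNAs passed, 17.7% as higher in B1 and 20.2% as lower, so 1 call in 4 miRNAs is no more than the background. By size, 105 other tested miRNAs had an absolute log2 fold change at least as large as that of miR-151-3p, and 38 had a higher log2 fold change.

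For the other 3 the estimates after TMM scaling were small. miR-28 had 702, 715 and 684 CPM and a log2 fold change of -0.05 ± 0.10 (SE; edgeR, adjusted p = 0.76). The biological library was again the lowest, as it was for 40.3% of the tested miRNAs on this scale. miR-708 had 938, 845 and 901 CPM, so that the biological value fell within the technical pair, and its log2 fold change was 0.02 ± 0.10 (SE; edgeR, adjusted p = 0.93). miR-151-5p had 88.1, 81.6 and 95.3 CPM, the biological library being the highest, as for the same 44.1%, and a log2 fold change of 0.17 ± 0.13 (SE; edgeR, adjusted p = 0.34). An interval of 2 SE reached 0.19 to either side of these estimates for miR-28 and miR-708 and 0.26 for miR-151-5p, and true changes anywhere within these intervals remain possible. The estimate of miR-151-3p lay above that edgeR interval of its partner arm. In DESeq2, miR-151-5p had 0.16 ± 0.21 (SE), and the 0.49 of miR-151-3p lay within 2 SE of it. The difference between the arms' fold changes was not tested.

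Of the 3 miRNAs that did not pass, miR-708 and miR-151-5p had estimates whose sign depended on the scaling, and miR-28 was negative under both. Relative to library totals, TMM raised B1 by 0.18 on the log2 scale. With library totals the log2 fold changes were -0.23 for miR-28, -0.17 for miR-708 and -0.01 for miR-151-5p (edgeR, adjusted p = 0.12, 0.25 and 0.95), and 0.32 for miR-151-3p (adjusted p = 0.038). Of all tested miRNAs, 30.0% passed on that scale, 6.54% as higher in B1 and 23.4% as lower. There the biological library lay below both technical ones for miR-28 and miR-708, as it did for 59.1% of the tested miRNAs, and above both for miR-151-3p, as for 24.5%. The adjusted p of miR-151-3p ranged from 4.34e-06 to 0.038 over the settings tried, and it passed in each of them, where DESeq2 called 22.9% of the tested miRNAs and edgeR 41.9% of those averaging 100 CPM or more. The spread in these tests comes from the technical pair alone, with 1 residual degree of freedom, and the p-values therefore speak of these libraries, not of animals.

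**Figure D3:**
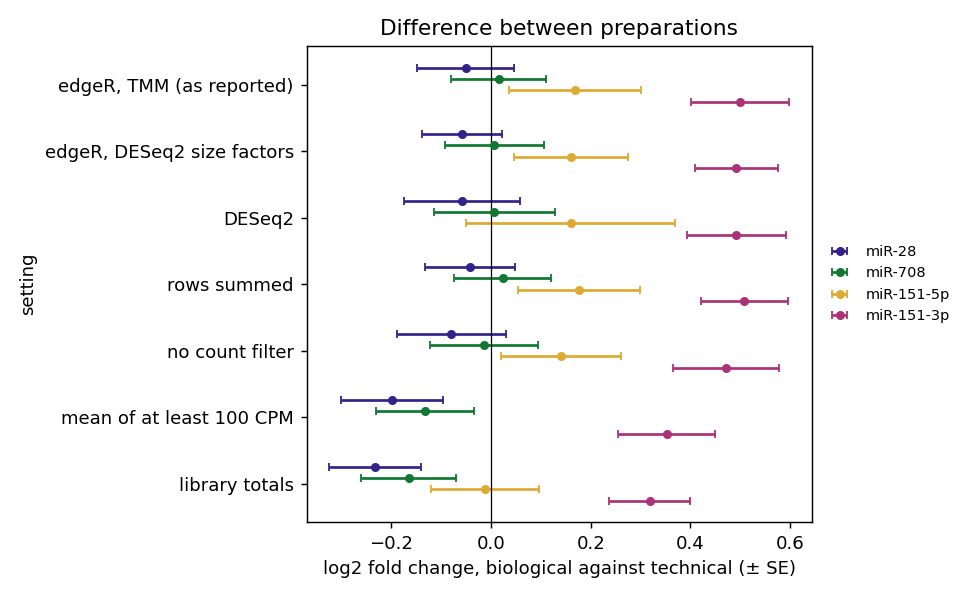
Log2 fold change of B1 against the technical pair for the 4 miRNAs (points, ± SE) under 7 settings of scaling, filter and tool. miR-151-3p stays between 0.32 and 0.51, while miR-708 and miR-151-5p fall on either side of 0; miR-151-5p has no value where a mean of at least 100 CPM was required.

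Markers of other cells also differed between the same libraries, and their calls are read beside the 20.2% of all tested miRNAs that were lower in B1 and the 17.7% that were higher. In the smooth muscle and fibroblast list 6 of 7 members were lower, but miR-199a-3p and miR-199c had identical counts and are 1 measurement. With these counted once, a choice made after seeing the data, 5 of 6 were lower. The list then summed to 1.68%, 1.89% and 1.02% of the counts in T1, T2 and B1 (1.98%, 2.19% and 1.22% with both). Most of that sum was miR-143, with 76060, 97879 and 55048 counts. The member that did not pass was miR-145, with only 14, 12 and 11 counts and a log2 fold change of -0.24. Both arms of the endothelial miR-126 hairpin were lower, with sums of 0.182%, 0.189% and 0.113%. In the leukocyte list 2 of 5 tested members were lower, miR-146a and miR-142-5p, while miR-142-3p, miR-150 and miR-155 did not pass. The list's sum of 280.5, 279.6 and 122.8 CPM was mostly miR-146a (1121, 1276 and 484 counts). miR-223 had 7, 6 and 7 counts and was not tested. In the erythrocyte list miR-486 was higher, and the list's sum of 898, 837 and 1097 CPM was nearly all miR-486. The red cell miRNA miR-451 had 131, 126 and 113 counts and did not pass (log2 fold change of -0.19), and miR-144 had 5, 6 and 4 counts. No member of these lists was at 0 in any library. Their part in the higher level of miR-151-3p was not tested.

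Other miRNAs on a list of hairpins linked to LINE-2 differed in both directions. The list was drawn up from general knowledge of repeat surveys of the human genome and was not checked against a repeat annotation of cattle, so its counts and median describe the named miRNAs and not a proven class. It held miR-95, miR-325, miR-374, miR-421, miR-493 and miR-545, of which miR-325 was not analysed here. Its 7 mature miRNAs in the table summed to 0.432%, 0.468% and 0.456% of the counts in T1, T2 and B1, somewhat less than the sum of miR-28, miR-708 and both miR-151 arms. Of 5 tested, 2 were higher, 1 was lower and 2 did not pass, beside 37.9% called over all tested miRNAs, and the median log2 fold change was 0.015 against 0.013 over all tested miRNAs.

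The CPM of the LINE-2 list are scaled by library totals, and its fold changes are after TMM scaling unless stated. miR-95 had 870, 837 and 1175 CPM and a log2 fold change of 0.64 ± 0.09 (SE; edgeR, adjusted p = 5.1e-10). With library totals its log2 fold change was 0.46 (edgeR, adjusted p = 0.017). The biological library stood above both technical ones, as it did with library totals for 24.5% of all tested miRNAs, miR-151-3p among them. miR-493, from the imprinted DLK1-DIO3 region, had 980, 999 and 1201 CPM and a log2 fold change of 0.46 ± 0.09 (SE; edgeR, adjusted p = 9.7e-06), but with library totals it did not pass (0.28, adjusted p = 0.057). miR-374a was the lower one, with 745, 754 and 496 CPM and a log2 fold change of -0.41 ± 0.10 (SE; edgeR, adjusted p = 2.0e-04). With library totals its log2 fold change was -0.59 (edgeR, adjusted p = 0.0090).

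miR-374b, the most abundant of the list at 1624 CPM ± 134 (SD, n = 2), had a log2 fold change of 0.01 and did not pass. It is closely alike to miR-374a in sequence, so the split of reads between them is uncertain. miR-421, at 173 CPM ± 17.7 (SD, n = 2), had -0.03. Both arms of miR-545 were below 10 counts in every library (5, 4 and 5 for miR-545-5p and 1, 7 and 2 for miR-545-3p) and were not tested.

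**Figure D4:**
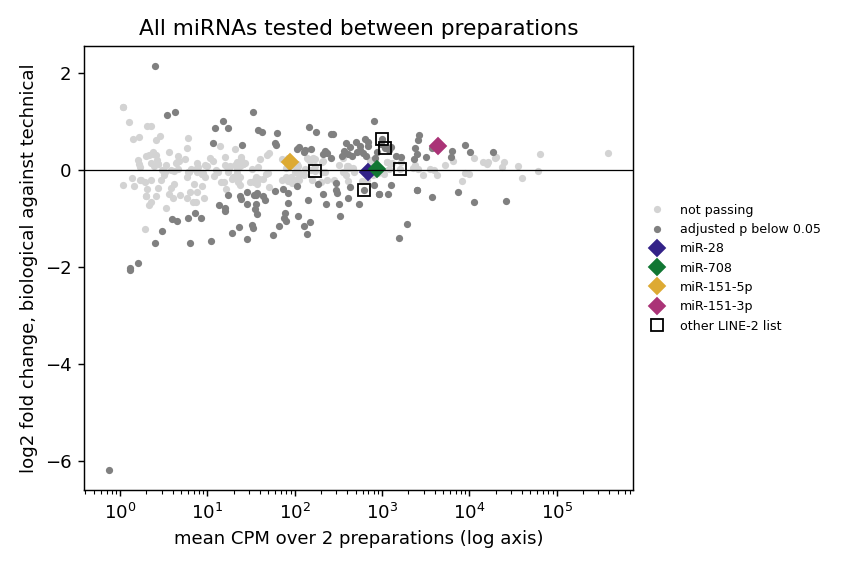
Log2 fold change of B1 against the technical pair and mean CPM over 2 preparations (log axis) of all 367 miRNAs tested, those with an adjusted p below 0.05 in darker grey. Diamonds mark the 4 miRNAs, of which miR-151-3p lies at 0.50 and the other 3 between -0.05 and 0.17, and open squares mark the 5 tested miRNAs of the LINE-2 list, from -0.41 to 0.64.

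The profiles over the 3 libraries were compared with those of the 167 miRNAs averaging 100 CPM or more, by the distance between centred log2(CPM + 1) values. Nearest to miR-151-3p were miR-654, miR-433 and let-7a-5p, with distances of 0.035, 0.036 and 0.039 against a median of 0.36 over the miRNAs compared. Nearest to miR-28 were miR-494, miR-660 and miR-378, from 0.015 to 0.025, and nearest to miR-708 were miR-758, miR-665 and miR-410, from 0.021 to 0.029. For miR-151-5p they were let-7c, miR-15b and miR-1343-3p, from 0.012 to 0.018. None of the 4 was among the nearest 3 of another. miR-151-5p, with a mean below 100 CPM, was not among the candidates for the others. Its distances to miR-708, miR-28 and miR-151-3p were 0.13, 0.20 and 0.29, each beyond the nearest 3 of that miRNA. miR-708 and miR-151-5p were the closest pair among the 4, at 0.13, and miR-28 and miR-151-3p the farthest apart, at 0.45. With only 3 libraries such distances describe these libraries and carry no test.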

How the data were processed

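Small RNA libraries were made from vesicle RNA of bovine chromaffin cells with the NEBNext small RNA set, per the labels' protocols. The deposited table holds raw read counts for 919 rows, each a mature miRNA on a hairpin, with values in CPM by the authors over all rows. A second deposited table gives log2 values of CPM by the authors for 459 rows and served only as an alternative. The submitters' processing notes name UMD3.1 and edgeR, and the aligner, counter and miRBase release were not given in the sources used here.

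Of several rows of 1 mature miRNA the most abundant was kept, and CPM were recomputed over the 793 mature miRNAs. Some copies had nearly equal counts, as if the same reads were counted on each. In T1 the 5p arm had 2718 counts on both mir-9-1 and mir-9-2, and 18222 and 18205 on let-7a-1 and let-7a-3. Keeping 1 row then avoids counting such reads more than once. Where reads are instead split between copies, the miRNA is counted too low. The 4 miRNAs have 1 row each. edgeR 4.0.16 (TMM, quasi-likelihood, R 4.3.3) compared the biological replicate with the technical pair over the 367 miRNAs that reached 10 counts in any library, at a Benjamini-Hochberg adjusted p of 0.05. DESeq2 1.42.0 was an alternative. The edgeR step was also run on simulated counts with the same spread in all 3 libraries and no added spread between preparations. That run therefore cannot show how the test behaves where preparations vary. Standard errors were derived from the fold change and the F statistic. Named were the 4 miRNAs, the LINE-2 list, the 2 miRNAs above and below each in level and the 3 nearest in profile. miRNAs with a shared seed were to be named too, but sequences were not analysed here. The 4 miRNAs and the lists were chosen with earlier results of these data known. Nothing in the labels says that the libraries came from separate animals, so the spread between them may be technical.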

Additional observations from a re-analysis of the deposited data

How the results depend on the processing

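miR-151-3p passed the test under all 6 alternatives of scaling, filter, tool and row choice, and miR-28, miR-708 and miR-151-5p under none of those that gave a value. The log2 fold change of miR-708 changed sign to -0.17 with library totals, -0.013 without a count filter, -0.13 with a mean of at least 100 CPM required, and ranged from -0.080 to 0.093 with 1 technical library left out, where no test is possible. That of miR-151-5p became -0.012 with library totals, and it had no value at 100 CPM because its mean is lower. Leaving out a technical library gave 0.49 for miR-151-3p either way, -0.06 for miR-28 either way and 0.09 to 0.22 for miR-151-5p. The number of miRNAs called was 139, against 84 in DESeq2 and 70 of 167 when only those of at least 100 CPM were fitted. Levels in CPM fell when rows were summed, and equally in the authors' CPM, because the total grows: to 518 for miR-28, 667 for miR-708, 66.8 for miR-151-5p and 3303 for miR-151-3p. With a library left out, levels ranged from 675 to 739 CPM, 861 to 929, 87.0 to 89.1 and 3868 to 4394 in the same order. The arm share was 97.99% in the authors' log2 table and 97.8 to 98.04% with a library left out, and the ratio of miR-151-3p to miR-28 was 6.45 and 5.24 to 6.46. With 2 preparations, leaving out B1 moves a mean by a fixed part of its SD, so these ranges are no sign of stability. No paired analysis was possible because the labels match neither technical library to B1. Depth limits miR-151-5p most, whose 502 to 588 counts set the width of the arm ratio's intervals.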
